A study of Mus musculus with 6 samples.

Results

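Gene expression in 1 line of mouse embryonic stem cells that lack 3 linker histones, H1 triple-null line 1, was set against that of wild-type embryonic stem cells. The arrays were chosen by their titles, and the comparison uses 4 of the 6 arrays of the series: 2 of wild type (ES_WT) and 2 of line 1 (ES_H1_3KO1), each labelled experiment 1 and experiment 2. Line 1 is null for the linker histone variants H1c, H1d and H1e (current gene symbols H1f2, H1f3 and H1f4), and the wild-type cells carry none of these deletions as far as the labels say. RNA came from cells in exponential growth. The remaining 2 arrays, of a separate triple-null line, enter only the estimate of the spread. The labels give neither the passage nor the culture conditions of a line, and do not say that its arrays were made from different cultures. The p-values therefore reflect how much repeat arrays differ, a spread that may be purely technical. Line 1 is a single line, and what differs between its clone and the wild-type cells for other reasons cannot be told apart from the loss of the linker histones.

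Linker histones of the H1 family sit on the outside of the nucleosome, at the DNA between one nucleosome and the next, and help chromatin to fold more tightly. Mammals have several somatic variants, most of them encoded in the large histone gene cluster. Embryonic stem cells are pluripotent cells of the early embryo whose chromatin is comparatively open, and the variants can partly stand in for each other.

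The values are MAS5 array intensities in arbitrary linear units, and changes are line 1 minus wild type on the scale of log2(value + 2), which understates the change of dim genes. Of the 7455 probe sets bright enough to be tested, 7 rose and 2 fell in line 1 (limma, Benjamini-Hochberg adjusted p under 0.05), which is 0.0939% and 0.0268% of those tested and 0.121% together. An unadjusted p under 0.05 was reached by 700, or 9.39%. By gene, 21 had line 1 wholly above wild type and at least 2-fold higher (0.371% of 5654 genes) and 17 wholly below and at least 2-fold lower (0.301%). The 4 arrays had median signals of 34.1 to 39.5 and equal trimmed means of 100.1, and correlations over probe sets were 0.963 to 0.976 between arrays of different lines, 0.976 within wild type and 0.972 within line 1. The ratio of 3′ to 5′ signal, a measure of RNA integrity, was -0.25 and -0.13 (log2) for Gapdh in wild type and -0.25 and -0.26 in line 1. For Actb it was 0.28 and 0.26 in wild type and 0.40 and 0.31 in line 1; its part in the differences was not tested. All 8 markers of embryonic stem cells were above background on every array, and their summed signal was 5273 and 5441 in wild type and 5921 and 5571 in line 1.

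**Figure D1:**
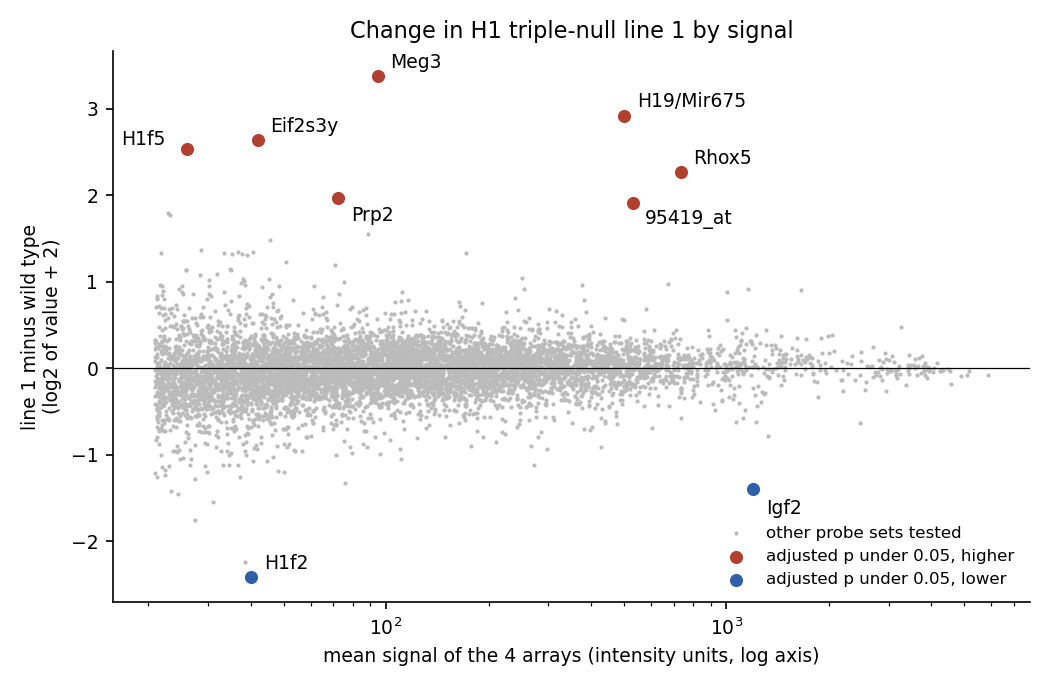
Change in line 1 (log2 of value + 2, line 1 minus wild type) against the mean signal of the 4 arrays (intensity units, log axis) for the 7455 probe sets tested. Grey points did not pass the adjusted p; the 7 red points are higher and the 2 blue points lower. The grey point just above H1f2 is Flt1, at -2.25.

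The targeted gene that the array could measure was near background in line 1. H1f2 gave 70.0 and 68.2 in wild type and 11.1 and 11.5 in line 1, and so fell by 2.42 ± 0.12 on the log2 scale (SE, n = 2 arrays a line, adjusted p = 0.00227). Both line 1 arrays lay far below both wild-type arrays, and only 1 of them was above its array's highest bacterial or yeast control probe set, which serves here as background (9.2 and 17.2 in wild type, 12.0 and 9.1 in line 1). The probe sets of H1f3 and H1f4 were at background on all 4 arrays, wild type included, with at most 1.4 units, so they check nothing about the label. In bulk RNA, fewer cells of a type and less RNA per cell cannot be told apart, here and in all that follows.

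Among the remaining linker histones, H1f5, the variant once called H1b, rose. It was at background in wild type, at 5.7 and 6.9, and gave 41.8 and 49.9 in line 1, a change of 2.53 ± 0.15 (adjusted p = 0.00393) that amounts to at least 3.63-fold against background. Both line 1 arrays were clearly above background and both wild-type arrays below it, so H1f5 passed the filter on signal only through line 1. H1f10, a variant encoded outside the histone cluster, read 201.7 and 282.2 in wild type and 298.6 and 726.0 in line 1, a difference of 0.96 ± 0.45 (adjusted p = 0.558). The line 1 arrays were both above wild type, 1 of them only slightly, and lay far apart from each other. H1f1, the variant once called H1a, read 17.2 and 25.8 against 30.8 and 34.2, a difference of 0.58 ± 0.26 (adjusted p = 0.546). The germ cell variants H1f6 and H1f8 were too dim to be tested, at 2.2 to 17.9 units over the 4 arrays.

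The promoters of the 3 targeted genes and of H1f5 are shown because H1f5 is the linker histone that rose where the others were deleted, and all 4 share one arrangement of elements. The sequences are the 130 bases before the start of each gene in RefSeq (build GRCm38.p6), 5′ to 3′ on the strand of the gene. Capitals mark matches on either strand, with overlapping matches run together. The first element searched was the H1 box, AAACACA. The next was the CCAAT box, spelled CCAAT. The TATA box was searched as TATATA, and also, in its other form, as TATAAA. H1f2 lies at chr13:23738677-23738806 (+ strand), H1f3 at chr13:23554902-23555031 (+ strand), H1f4 at chr13:23622559-23622688 (- strand) and H1f5 at chr13:21780626-21780755 (- strand).
H1f2: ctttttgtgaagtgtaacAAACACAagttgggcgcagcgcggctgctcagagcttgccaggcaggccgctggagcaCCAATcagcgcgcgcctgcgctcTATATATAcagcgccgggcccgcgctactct
H1f3: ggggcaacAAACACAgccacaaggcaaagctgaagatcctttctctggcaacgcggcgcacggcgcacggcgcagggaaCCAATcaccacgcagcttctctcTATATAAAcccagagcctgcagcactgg
H1f4: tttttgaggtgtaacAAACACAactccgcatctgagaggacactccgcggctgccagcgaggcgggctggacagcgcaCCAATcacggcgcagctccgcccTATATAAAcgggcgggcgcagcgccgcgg
H1f5: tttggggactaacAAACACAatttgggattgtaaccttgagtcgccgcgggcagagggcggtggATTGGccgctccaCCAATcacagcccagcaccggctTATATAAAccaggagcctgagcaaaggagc
In each the H1 box came first, beginning 112 to 122 bases before the start, followed by CCAAT at 51 to 54 bases and the TATA form. H1f5 held a further CCAAT on the opposite strand. Among 32851 promoter windows of this length, 2.98% held the H1 box, 22.4% CCAAT, 2.66% TATATA and 6.83% TATAAA. All of H1 box, CCAAT and a TATA form stood together in 0.125%. These matches describe the letters only.

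Core histone genes were hard to separate. Most replication-dependent copies share their sequence, and the array reads them through probe sets listed with several genes. The probe set 93833_s_at, listed with the H2B genes H2bc8, H2bc6 and H2bc4, read 109.9 and 108.0 in wild type and 47.5 and 37.3 in line 1, a difference of -1.33 (adjusted p = 0.0704) just outside the threshold. By contrast 93023_f_at, listed with 12 H3 genes, read 120.3 and 121.1 against 192.2 and 221.5, a difference of 0.76 (adjusted p = 0.171). Both probe sets had non-overlapping arrays, in opposite directions, and neither passed. Another probe set listed with the same 12 H3 genes, 96416_f_at, differed by 0.37 (adjusted p = 0.601). The H2A probe sets 94805_f_at and 93067_f_at overlapped between lines, at -0.04 and -0.07. H3c14, an H3 gene with a probe set of its own, read 13.5 and 30.3 against 58.8 and 37.5 (1.13, adjusted p = 0.437). The 5 replacement and centromeric variants tested (H2ax, H2az1, H2az2, Macroh2a1 and Cenpa) differed by 0.09 to 0.15.

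Imprinted genes, which are read from the maternal or the paternal copy only, were among the genes that rose. Meg3, a long noncoding RNA of the maternal chromosome, read 15.4 and 14.2 in wild type and 195.9 and 152.8 in line 1. This was a rise of 3.38 ± 0.16 (adjusted p = 0.00227), and both line 1 arrays stood far above wild type, where only 1 array was above background. A further Meg3 probe set, 160173_at, read 47.7 and 40.2 against 140.1 and 125.7, a difference of 1.56 ± 0.16 whose adjusted p of 0.0505 fell just short. H19, a maternally expressed noncoding RNA that is also the precursor of miR-675, is read by 93028_at, which is listed with both H19 and Mir675. It gave 106.8 and 122.9 in wild type and 813.3 and 959.3 in line 1, a rise of 2.92 ± 0.15 (adjusted p = 0.00227) or 7.59-fold. The lines were far apart and the arrays within a line close together.

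Igf2, the paternally expressed growth factor next to H19, fell. Its probe set 98623_g_at read 1713.7 and 1762.9 in wild type and 596.6 and 722.5 in line 1, and so fell by 1.40 ± 0.14 (adjusted p = 0.0454), 2.64-fold. Both line 1 arrays were well below wild type, while another Igf2 probe set, 98622_at, was at background on all 4 arrays, at 2.0 to 3.3 units. This call was the least secure: it was lost with each single array left out in turn, in the fit to the 4 arrays alone and with no filter on dim probe sets (adjusted p = 0.277), with adjusted p-values up to 0.378 over the alternatives, although the difference stayed between -1.54 and -1.26. Neighbours did not share these changes past the threshold. Dlk1, the paternally expressed gene beside Meg3, read 84.0 and 97.0 against 76.9 and 77.6 (-0.22, adjusted p = 0.641). Mrpl23, a mitochondrial ribosomal protein gene on the far side of H19, differed by 0.28.

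The sequences below belong to these imprinted genes. The probe set of H19 is also listed with Mir675, so the mature arms of that miRNA are shown, though the array does not read mature miRNAs; capitals mark the seed, bases 2 to 8 (RefSeq, GRCm38.p6, - strand, chr7:142577112-142577133 for the 5p arm and chr7:142577078-142577099 for the 3p arm). For Meg3 the 250 bases before the start are shown (chr12:109540746-109540995, + strand), with each CpG in capitals, because imprinting acts through CpG methylation. Methylation was not measured here.
mmu-miR-675-5p: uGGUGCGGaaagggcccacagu
mmu-miR-675-3p: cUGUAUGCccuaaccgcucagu
Meg3: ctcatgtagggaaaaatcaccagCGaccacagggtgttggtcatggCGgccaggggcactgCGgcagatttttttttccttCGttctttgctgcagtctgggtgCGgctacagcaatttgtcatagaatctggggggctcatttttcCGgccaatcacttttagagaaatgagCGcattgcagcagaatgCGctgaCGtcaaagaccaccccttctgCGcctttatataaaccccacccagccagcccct
This Meg3 window holds 10 CpG. The table lists a further start of Meg3, and the mean over both is 5.0 CpG.

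The other imprinted genes gave no further calls. Of 16 maternally expressed genes tested, Meg3 was the 1 that passed, against 0.124% of all 5654 genes tested in either direction, and the list had a median difference of -0.14 (-0.25 to -0.01) beside -0.01 over all genes. Ranges given with list medians are those with single arrays left out. Phlda2, a placental growth regulator, read 259.4 and 276.7 in wild type and 370.7 and 384.6 in line 1 (0.49, adjusted p = 0.307). Gnas, a G protein subunit, read 2032.9 and 2118.5 against 1619.8 and 1667.6 (-0.34, adjusted p = 0.46). Of 12 paternally expressed genes tested, Igf2 was the 1 that passed, and the median was -0.21 (-0.27 to -0.06). Plagl1, a zinc finger transcription factor, read 54.1 and 67.5 against 21.3 and 35.6 (-1.08, adjusted p = 0.31), lower on both arrays. The medians nearest to 0 in both lists were those without the line 1 array of experiment 2.

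Rhox5, an X-linked homeobox gene of the reproductive tract that is held silent by DNA methylation in many cells, rose. It read 212.8 and 294.6 in wild type and 1209.2 and 1214.4 in line 1, a change of 2.27 ± 0.18 (adjusted p = 0.0115) or 4.81-fold. The line 1 arrays were nearly equal and both far above wild type. The call was lost without the wild-type array of experiment 1, without either line 1 array and with no filter on dim probe sets, with adjusted p up to 0.177 over the alternatives. The 250 bases before its start (RefSeq, GRCm38.p6, chrX:37754358-37754607, + strand) are shown with CpG in capitals because this promoter is known as a target of DNA methylation.
Rhox5: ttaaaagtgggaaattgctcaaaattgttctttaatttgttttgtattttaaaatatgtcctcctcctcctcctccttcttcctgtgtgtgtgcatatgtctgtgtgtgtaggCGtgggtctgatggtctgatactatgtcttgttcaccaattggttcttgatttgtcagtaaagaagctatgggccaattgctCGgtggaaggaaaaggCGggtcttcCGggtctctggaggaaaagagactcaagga
The window holds 4 CpG.

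Other germline genes known for promoter methylation were mixed. Of 9 tested, Rhox5 passed, 4 had both line 1 arrays above both wild-type arrays, and the median was 0.11 (0.22 to 0.35); over all genes tested, 20.2% had line 1 wholly above and 20.7% wholly below wild type. Cyct, the testis form of cytochrome c, read 23.8 and 16.5 in wild type and 55.5 and 51.3 in line 1 (1.34 ± 0.19, adjusted p = 0.104). Its wild-type mean was below the filter of 21 units, so it could be tested only through line 1. Zp3, an egg coat glycoprotein, read 32.8 and 37.1 against 58.2 and 58.5 (0.71, adjusted p = 0.179). Tex19.1, a germ cell gene, gave 97.2 and 119.3 against 143.3 and 173.7 (0.54, adjusted p = 0.486). All of these were higher on both arrays without passing. Dazl, Ddx4 and Zp2, 3 further germ cell genes, overlapped between the lines, with differences of -0.02, 0.11 and -0.12.

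**Figure D2:**
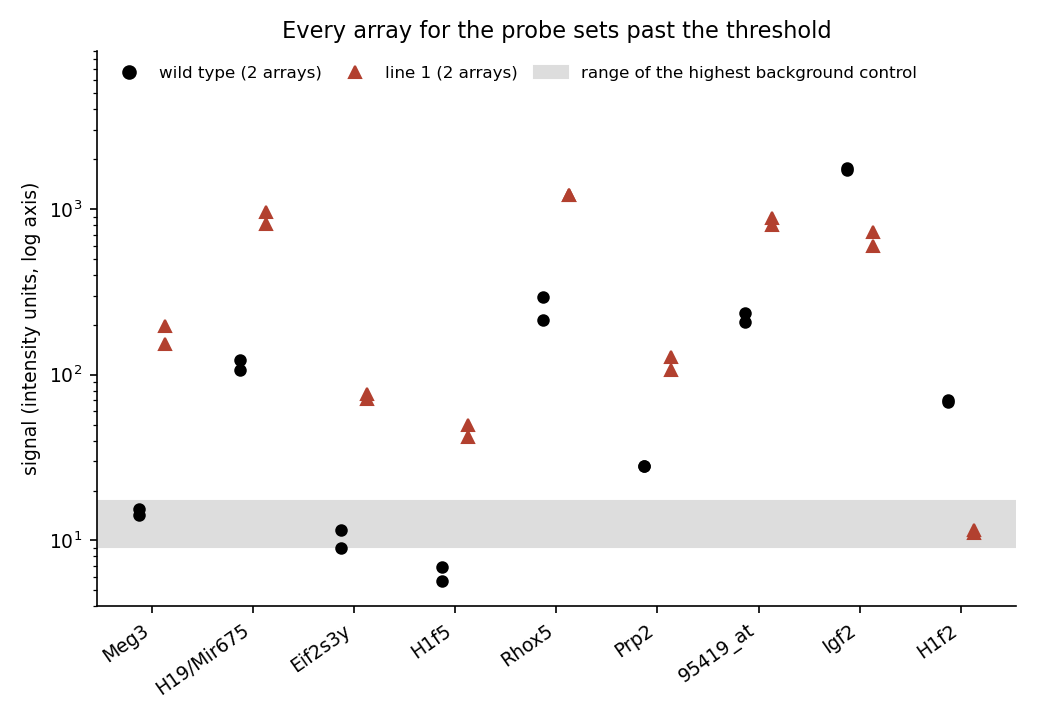
Signal of every array (intensity units, log axis) for the 9 probe sets past the adjusted p; circles are the 2 wild-type arrays, triangles the 2 line 1 arrays, and the grey band is the range of the highest background control over the 4 arrays. Wild type lies in or under the band for Meg3, Eif2s3y and H1f5, and line 1 lies in it for H1f2.

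The remaining calls were of other kinds. Eif2s3y, the Y-linked copy of a translation initiation factor subunit, read 11.5 and 9.0 in wild type and 76.0 and 71.5 in line 1, a rise of 2.64 ± 0.15 (adjusted p = 0.00291). Of the wild-type arrays 1 of 2 was above background, and both line 1 arrays were clearly above it. Its probe set, 103674_f_at, belongs to a type shared within gene families, and the X-linked copy Eif2s3x read 1133.7 and 1015.5 against 1112.5 and 1214.3 (0.12, adjusted p = 0.824). No other Y-linked gene on the array was bright enough to be tested: Kdm5d was at background on all 4 arrays, and Uty read 5.2 and 14.4 in wild type and 13.3 and 17.5 in line 1. The sex-determining gene Sry went the other way on 99556_s_at, at 16.2 and 18.1 in wild type, above background on both arrays, and 10.1 and 9.5 in line 1, above it on 1 of 2. Its other probe set was at background on all 4 arrays. Xist, the RNA that silences an X chromosome in female cells, was also at background on all 4 arrays.

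Prp2, which encodes a proline-rich protein, read 28.2 and 28.3 in wild type and 127.2 and 106.3 in line 1 on 93650_i_at, a rise of 1.97 ± 0.14 (adjusted p = 0.00894), 3.91-fold. Its further probe set, 93651_r_at, disagreed: it gave 29.2 and 123.1 against 33.3 and 89.0 (-0.14, adjusted p = 0.977), with the high and low arrays split by experiment and not by line. The probe set 95419_at, with no gene listed, read 208.3 and 235.9 against 883.4 and 796.7, a rise of 1.91 ± 0.15 (adjusted p = 0.0115), 3.76-fold. Its line 1 arrays lay far above wild type.

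How far these 9 calls depend on single arrays was checked by leaving each out. Without the wild-type array of experiment 1, 3 probe sets rose and 0 fell by limma (629 had an unadjusted p under 0.05), and without that of experiment 2, 5 rose and 1 fell (456). Without the line 1 array of experiment 1, 4 rose and 2 fell (1058 at that unadjusted p), and without that of experiment 2, 5 rose and 1 fell (581). Meg3, the H19 probe set and Eif2s3y passed under every one of these. Prp2 was lost with each array left out except the line 1 array of experiment 2, Rhox5 with each except the wild-type array of experiment 2, and 95419_at and Igf2 with each of the 4. H1f2 and H1f5 were lost only without the wild-type array of experiment 1, at adjusted p = 0.0508 and 0.0638. Meg3, Eif2s3y, H1f5 and H1f2 had a mean below the filter of 21 units in the line where they were dim, so they could be tested only through the other. With 2 arrays against 2, an exact permutation test could reach no p below 0.333, so all calls rest on the model. With a prior spread that follows the signal, 22 rose and 20 fell, and with no filter on dim probe sets 4 rose and 1 fell.

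Below the threshold, 10 more genes were chosen on the higher side as those with the smallest p and no overlap between lines, all with adjusted p between 0.0895 and 0.171. Pfkp, the platelet form of the glycolytic enzyme phosphofructokinase, read 32.1 and 27.3 in wild type and 80.2 and 64.5 in line 1 (1.23 ± 0.16), and its further probe set gave 1.19. Cela1, a pancreatic elastase, read 22.2 and 20.5 against 47.5 and 65.6 (1.31 ± 0.18). Fbxo15, an F-box protein of undifferentiated embryonic stem cells, read 170.2 and 155.6 against 375.4 and 301.0 (1.04 ± 0.15). In all of these, the lower line 1 array was above the higher wild-type array by a wide margin. Gab1, an adaptor of receptor tyrosine kinases, read 287.0 and 270.3 against 457.0 and 513.1 (0.79 ± 0.13), with 0.34 on its further probe set. Crabp1, a retinoic acid binding protein, read 31.6 and 33.1 against 64.2 and 56.1 (0.85 ± 0.15). Ddx25, an RNA helicase of the testis, differed by 0.73 on one probe set and by 0.23 on another. Cyct is given above, and Arhgap45, Ptprg and Galnt6 differed by 0.73, 0.72 and 1.15. Outside this choice, and picked after its values were seen, Dpysl4 had a larger difference (1.79 ± 0.35, adjusted p = 0.227). It was at background in wild type, at 8.8 and 9.4, and read 32.8 and 40.5 in line 1, at least 2.9-fold higher. It passed the filter on signal only through line 1.

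On the lower side, 13 genes were chosen in the same way, again with adjusted p between 0.0895 and 0.171. Igfbp3, a binding protein that carries insulin-like growth factors, read 385.2 and 362.6 in wild type and 177.2 and 163.7 in line 1 (-1.12 ± 0.14), and its further probe set differed by -0.60. Col4a2, a chain of basement membrane collagen, read 344.1 and 353.3 against 186.6 and 183.7 (-0.91 ± 0.12). Adam9, a membrane-bound metalloprotease, read 114.0 and 116.5 against 64.1 and 56.7 (-0.91 ± 0.13). The arrays within a line were close together in each case. F3, the tissue factor that starts blood clotting, read 166.0 and 148.2 against 92.0 and 85.9 (-0.81 ± 0.13). Edn1, the vasoconstrictor endothelin, read 62.3 and 63.3 against 33.5 and 31.8 (-0.90 ± 0.13), but its further probe set gave 0.03, so its probe sets disagreed.

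Frmd6, a membrane-linked upstream component of the Hippo pathway, read 47.7 and 46.6 against 23.3 and 22.6 (-0.98 ± 0.12). Acta2, smooth muscle actin, read 608.8 and 512.5 against 302.6 and 290.3 (-0.91 ± 0.15). Emp1, an epithelial membrane protein, read 229.9 and 234.3 against 131.1 and 116.8 (-0.90 ± 0.13). Each of these was lower in line 1 by far more than the arrays of a line differed. Mknk1, a kinase of the translation initiation factor eIF4E, read 104.7 and 100.7 against 52.0 and 55.7 (-0.91 ± 0.12). Serpinb9, an inhibitor of granzyme B, read 53.5 and 51.3 against 23.6 and 26.8, and Nnt, the mitochondrial transhydrogenase, 126.1 and 130.5 against 72.5 and 55.1. Tcta, a gene named for a translocation in T-cell leukaemia, and Gadd45b, a stress-induced gene, differed by -1.46 and -0.79. Flt1, a receptor for vascular endothelial growth factor, read 64.5 and 65.2 in wild type and 12.2 ± 2.55 (SD, n = 2) in line 1. Its difference of -2.25 ± 0.57 did not pass (adjusted p = 0.316). It passed in the fit to the 4 arrays alone (adjusted p = 0.0288), which leaves out the spread of the second null line. Flt1 and Tcta had line 1 means below the filter of 21 units, so both could be tested only through wild type.

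**Figure D3:**
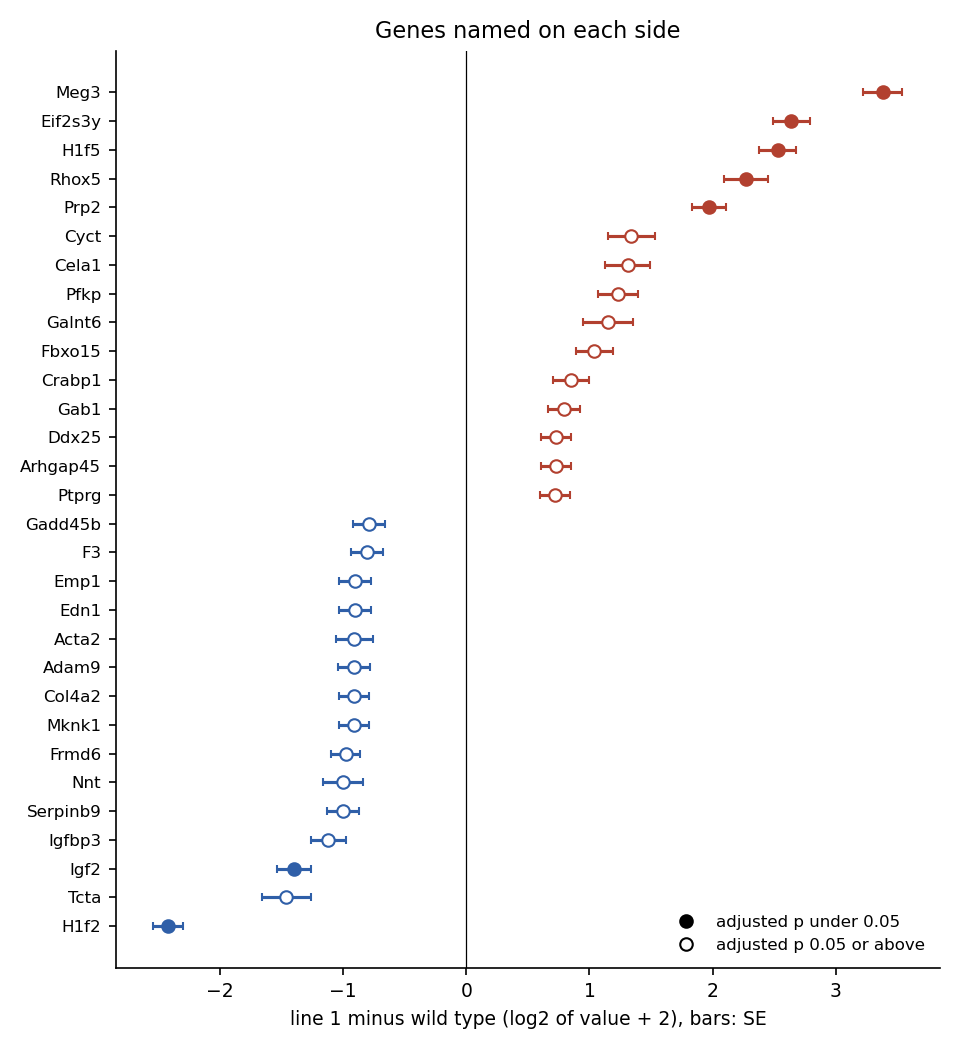
Differences of the 15 genes named on each side (line 1 minus wild type, log2 of value + 2), with bars for the SE from the model (2 arrays a line). Filled points passed the adjusted p; open points did not, and run from Cyct at 1.34 down to Ptprg at 0.72 on the higher side and from Gadd45b at -0.79 to Tcta at -1.46 on the lower side.

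The gene lists below were read against the whole array: over 5654 genes tested the median difference was -0.01, with 20.2% of genes wholly above and 20.7% wholly below wild type on the arrays. No member of a list passed the adjusted p except those already given, so differences are values and not calls, and no list was tested as a set.

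Genes of simple epithelium and cell junctions leaned lower. Of 20 tested, 12 had both line 1 arrays below both wild-type arrays and 1 had both above, and the median was -0.33 (-0.42 to -0.27). Krt8 and Krt18, the paired keratins of simple epithelium, read 1475.7 and 1490.8 against 909.4 and 1023.7 (Krt8, -0.62), and 1629.8 and 1718.7 against 1094.5 and 866.2 (Krt18, -0.78). Cldn3, a tight junction protein, read 123.3 and 140.6 against 71.6 and 75.3 (-0.83, adjusted p = 0.221). Perp, a desmosome protein, read 474.6 and 520.3 against 285.8 and 334.0 (-0.68). These 4 genes were lower on both arrays. Cdh1, E-cadherin, and Epcam overlapped between lines, at -0.15 and -0.14, and Gjb5, a connexin, was the 1 gene wholly above, at 54.5 and 48.5 against 83.1 and 80.7 (0.65, adjusted p = 0.221).

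Contractile and matrix genes that mark fibroblasts showed a split. Of 24 tested, 13 were wholly below and 1 wholly above wild type, with a median of -0.37. Tagln, an actin-binding protein, read 1264.5 and 1372.9 against 873.1 and 1019.9 (-0.48), and Tpm1, a tropomyosin, 1109.4 and 1080.8 against 824.3 and 873.1 (-0.37). The annexins Anxa1 and Anxa2, which bind membranes, differed by -0.63 and -0.55. The collagens that define fibroblasts overlapped between lines: Col1a1 read 147.3 and 169.5 against 174.7 and 144.4 (0.01) and Col1a2 read 199.9 and 238.7 against 217.5 and 269.1 (0.15).

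Since cultures of embryonic stem cells are often grown on feeder fibroblasts, the markers of that cell type were summed. Of 9 on the array, 5 were above background on both arrays of either line, and the sum was 2297 and 2362 in wild type and 1635 and 1785 in line 1. Acta2 and Tagln made up most of it. Col3a1, Lum and Postn stayed at or under 20.6 units. Thy1, another of the markers, read 7.2 and 5.3 in wild type and 8.4 and 22.3 in line 1. The part of such cells in the differences was not tested. Of 10 Hippo pathway genes and targets, some of them also in the fibroblast list, 7 were wholly below and 1 wholly above (median -0.48). Wwtr1, the coactivator TAZ, read 161.5 and 163.2 against 99.4 and 99.6 (-0.70, adjusted p = 0.171). Its targets Ccn1 and Ccn2, both matricellular proteins, each differed by -0.57. Yap1, the other coactivator, differed by -0.12, and Nf2, an upstream member, was higher at 139.2 and 130.2 against 178.4 and 197.6 (0.47).

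In the insulin-like growth factor system, binding proteins stood below wild type beside Igf2 itself. Of 12 genes tested, 5 were wholly below and 0 wholly above, with a median of -0.28 (-0.45 to -0.13, the latter without the line 1 array of experiment 1). All 3 binding proteins tested were below: Igfbp3, given above, Igfbp4 at 119.2 and 103.6 against 53.5 and 66.1 (-0.88, adjusted p = 0.262), and Igfbp2 at 1449.5 and 1402.6 against 978.1 and 1216.8 (-0.39). The receptors Igf1r and Igf2r overlapped between lines (-0.23 and -0.06), as did the ligand Igf1 (0.01).

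Markers of early lineages were often dim, and those of extraembryonic endoderm, mesoderm and trophoblast leaned lower. For extraembryonic endoderm, 7 of 17 were wholly below (median -0.29, from -0.44 without the line 1 array of experiment 1 to -0.01 without that of experiment 2). Among the lower ones, the matrix gene Col4a1 read 359.1 and 393.0 against 220.8 and 277.2 (-0.60). Lrp2, an endocytic receptor, read 355.0 and 386.4 against 251.6 and 247.2 (-0.57). Gata4 and Sox17, transcription factors that define this lineage, overlapped (-0.23 and 0.12), and Apoe, a lipid carrier, was higher at 1689.4 and 1776.7 against 2040.7 and 2460.8 (0.37). For mesoderm and the primitive streak, 9 of 15 were wholly below and 0 above (median -0.25, from -0.41 without the line 1 array of experiment 1 to -0.14 without that of experiment 2). Apart from Flt1 these 9 differed by -0.60 to -0.08. Lmo2, a regulator of blood formation, read 57.7 and 49.5 against 37.4 and 38.6 (-0.47). Twist1, a mesodermal factor, read 24.9 and 28.8 against 17.0 and 17.0 (-0.60). Among trophoblast markers, 7 of 18 were wholly below and 2 above (median -0.17, and -0.10 without the line 1 array of experiment 1). Cdx2, the factor that defines trophoblast, was at background on all 4 arrays. Neural markers leaned slightly the other way, with 5 of 15 wholly above and 2 below. Their median was 0.13, from 0.08 without the line 1 array of experiment 2 to 0.23 without that of experiment 1. Tubb3, a neuronal tubulin, read 519.1 and 683.9 against 774.9 and 811.1 (0.41). The neuroectoderm markers Nes and Sox1 overlapped between lines (0.13 and 0.22). Pax6, another marker of neuroectoderm, was lower at 16.3 and 16.2 against 11.5 and 8.4, and too dim to be tested. The tested genes wholly below were Dll1, a Notch ligand, at 22.9 and 29.8 against 12.0 and 20.1 (-0.68, adjusted p = 0.498), and Gap43, a protein of growing axons, at 120.8 and 101.5 against 83.2 and 60.5 (-0.63, adjusted p = 0.38). Of 10 retinoic acid pathway genes, 5 were wholly above and 1 below (median 0.26), among them Crabp1 and Crabp2, the latter at 40.5 and 32.1 against 57.9 and 52.5 (0.59). Both are also counted in the neural list, among its 5 genes wholly above.

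Pluripotency genes were close to wild type, more of them above than below it. Of 29 tested, 13 were wholly above and 3 below, with a median of 0.16. The core factor Pou5f1, also called Oct4, read 1536.3 and 1527.2 against 1700.2 and 1680.9 (0.14). Nanog and Sox2 overlapped between lines (-0.00 and 0.07). Dppa3, a maternal factor also called Stella, read 243.5 and 214.2 against 434.6 and 311.4 (0.68, adjusted p = 0.348), and Tcl1, an activator of Akt, 66.4 and 64.8 against 106.5 and 105.3 (0.67, adjusted p = 0.227). With Fbxo15 these were the highest of the list. Slc2a3, a glucose transporter, went the other way, at 2920.5 and 3089.9 against 2013.8 and 1858.1 (-0.63, adjusted p = 0.265). In the pathway of LIF, the cytokine that keeps mouse embryonic stem cells undifferentiated, 5 of 8 genes were wholly below and 2 above. Jak1, its kinase, read 106.6 and 110.2 against 92.1 and 79.7 (-0.33), and Stat3, its transcription factor, 214.4 and 232.6 against 205.0 and 163.7 (-0.28). Socs3, a feedback inhibitor, was above at 88.2 and 103.7 against 103.9 and 126.5 (0.26).

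**Figure D4:**
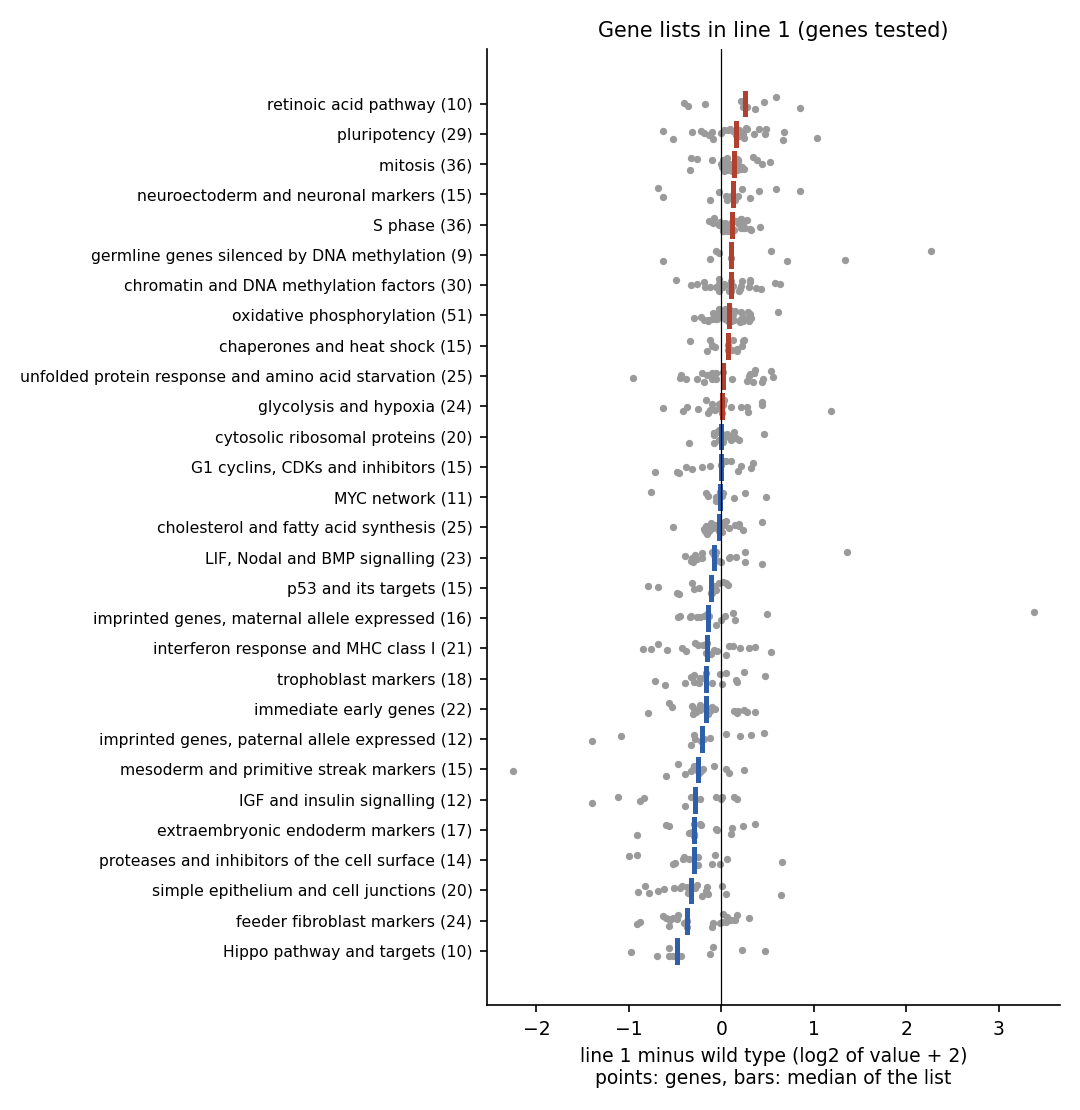
Differences of single genes (grey points; line 1 minus wild type, log2 of value + 2) in the lists with at least 9 genes tested, whose number stands in parentheses, and the median of each list (red above 0, blue at or below 0). Medians run from -0.48 for the Hippo pathway to 0.26 for the retinoic acid pathway, and single points far out are Meg3, Rhox5, Igf2 and Flt1.

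Genes of S phase and mitosis leaned slightly higher, by small amounts. Of 36 S phase genes, 14 were wholly above and 0 below wild type (median 0.12), and of 36 genes of mitosis, 20 were wholly above and 2 below (median 0.14). The ribonucleotide reductase subunit Rrm1 read 248.6 and 226.8 against 296.0 and 343.0 (0.42), and Rpa1, which binds single-stranded DNA, 466.4 and 439.9 against 545.1 and 586.9 (0.32). Nusap1, a spindle protein, read 322.2 and 249.4 against 388.8 and 435.6 (0.53), and Pttg1, the securin, 243.8 and 230.9 against 325.9 and 318.8 (0.44, adjusted p = 0.339). These stand at the upper end of their lists. Among G1 regulators 4 of 15 were wholly above and 6 below. The inhibitors Cdkn2c, Cdkn2b and Cdkn2a were among those below, at -0.72, -0.48 and -0.32, and Cdkn2d was above, at 0.34. Of 15 genes of the p53 response 6 were wholly below and 0 above (median -0.11, from -0.27 without the line 1 array of experiment 2 to -0.06 without that of experiment 1). Among these, Sfn, a 14-3-3 protein that is also epithelial, read 1089.6 and 1066.7 against 739.4 and 802.2 (-0.48). Perp, Gadd45b and Btg2, also wholly below, are counted in other lists too. Mdm2 and Cdkn1a, further p53 targets, overlapped between lines (-0.24 and -0.46). Of 22 immediate early genes, 10 were wholly below and 5 above (median -0.17, and -0.08 without the wild-type array of experiment 2). Ier3 read 215.7 and 199.7 against 153.1 and 134.4 (-0.53).

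Immune genes were mixed. Of 21 genes of MHC class I and the interferon response, 7 were wholly below and 3 above (median -0.15, and -0.03 without the line 1 array of experiment 1). Tapbp, which loads peptides onto MHC class I, read 287.6 and 275.6 against 173.1 and 158.9 (-0.76, adjusted p = 0.171). Gbp2, an interferon-induced GTPase, read 268.7 and 271.4 against 166.1 and 133.5 (-0.85, adjusted p = 0.171). Both were lower on both arrays, while Ifitm3, an interferon-induced membrane protein, was higher at 1258.3 and 1262.1 against 1480.2 and 1799.6 (0.37). Of 14 proteases and inhibitors of the cell surface, 8 were wholly below and 1 above (median -0.30). The 1 above was Adam19, at 94.9 and 92.8 against 157.3 and 141.7 (0.66, adjusted p = 0.215), opposite to Adam9.

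The medians of metabolic lists stayed near that of all genes, though oxidative phosphorylation genes leaned slightly higher. Of 51 oxidative phosphorylation genes, 21 were wholly above and 4 below (median 0.08). Ndufb3, a subunit of complex I, had the largest difference, at 313.8 and 211.0 against 370.3 and 419.6 (0.61). Of 25 genes that respond to unfolded protein or to a lack of amino acids, 11 were wholly above and 7 below (median 0.02, and 0.28 with the filter at the 60th percentile). Those above included genes of amino acid supply, such as Psat1, an enzyme of serine synthesis, at 1166.0 and 1045.1 against 1582.0 and 1433.6 (0.45), and the tRNA synthetase Wars, at 333.9 and 248.5 against 468.8 and 388.4 (0.56). Asns, which makes asparagine, differed by 0.35. Also wholly above were Xbp1, a transcription factor of the unfolded protein response, at 137.5 and 119.1 against 191.2 and 183.4 (0.54, adjusted p = 0.307), and Herpud1, a stress-induced protein of the endoplasmic reticulum, at 78.0 and 78.5 against 98.8 and 92.0 (0.28). The chaperone Hspa5 and the disulfide isomerase Pdia3, of the endoplasmic reticulum, were below, at -0.19 and -0.38. Ddit3, a stress-induced transcription factor, was also wholly below and had the largest difference of the list. It read 65.9 and 80.7 against 55.8 and 23.8 (-0.96, adjusted p = 0.5). Glycolysis and hypoxia genes (24 tested, median 0.01, from -0.06 to 0.04), cholesterol and fatty acid synthesis (25, median -0.02), chaperones (15, median 0.07, from -0.05 to 0.09) and cytosolic ribosomal proteins (20, median 0.00) lay near 0. Both glucose transporters were below wild type: Slc2a1 read 1099.0 and 992.6 against 745.7 and 824.3 (-0.41), and Slc2a3 is given above. The metallothioneins Mt1 and Mt2, which bind zinc, each differed by 0.47 (adjusted p = 0.409 and 0.339), Mt1 at 1005.0 and 903.4 against 1410.3 and 1235.9. Mt3 overlapped between lines. Mt4 was at background in wild type (6.2 and 8.2), read 22.2 and 24.0 in line 1, at least 1.83-fold higher, and was too dim to be tested.

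Factors that write, read or remodel chromatin differed little. Of 30 tested, 8 were wholly above and 4 below (median 0.10). Setdb1, a histone H3 methyltransferase, read 230.5 and 189.1 against 292.0 and 337.9 (0.58, adjusted p = 0.553), and Hmgn5, which binds nucleosomes, 178.1 and 195.6 against 254.9 and 250.4 (0.43, adjusted p = 0.348). Hmga2, an architectural protein of the nucleus, was lower at 203.2 and 167.1 against 129.2 and 132.7 (-0.49, adjusted p = 0.498). Dnmt1, the maintenance DNA methyltransferase, overlapped between lines at 442.6 and 464.9 against 455.0 and 521.0 (0.10), as did its partner Uhrf1 (0.02), while Dnmt3a differed by 0.22. Of 6 Hox genes tested, 1 was wholly above and 2 below (median -0.05, from -0.13 to 0.04).

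Promoter CpG was counted for the genes named on each side. Over the 250 bases before the start, the median was 10.5 CpG for the 14 of 15 genes on the higher side with a promoter in the table and 17.0 for 13 of 15 on the lower side, against 16.5 over the 4581 genes tested that have one. For the genes that differed at least 2-fold without overlap the medians were 10 (19 of 21 genes, higher) and 13 (16 of 17, lower). The higher side ranged from 0 to 34 CpG and the lower from 3 to 33, so the ranges overlapped. These genes were chosen for their differences, and the medians are a description.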

How the data were processed

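The authors deposited 1 table of linear array intensity values. The submitters' processing notes name MAS5, and its settings are not given in the sources used here. Of 12488 probe sets, 66 controls were left out, and 19 bacterial and yeast controls gave the background. Gene names came from the platform's annotation (10833 with 1 gene, 396 with several, 1193 with none), with symbols updated for 10817. On log2(value + 2), limma 3.58.1 (lmFit, then eBayes; R 4.3.3) was fitted to all 6 arrays with a mean per line. A filter kept probe sets whose mean over the 4 compared arrays reached the 40th percentile: 7455 probe sets (6732 with 1 gene) and 5654 genes. The Benjamini-Hochberg adjustment ran over all of them, with a threshold of 0.05. The brightest probe set stands for a gene in the lists. Where a line is at background on both arrays, a fold is an at-least bound against each array's highest background control.

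Genes named by rule were those past the threshold with no overlap between lines, filled up to 15 a side by the smallest p. The rule also took all linker histones, Xist, the metallothioneins and the Y-linked genes of their list. From each of 35 lists it took the 4 members with the smallest p, and not all of these are given in the text. Others in the text were picked from the lists after their values were seen. The comparison, the lists and the genes were chosen with earlier results of these data known. In simulated data, with 200 of 7455 probe sets changed in line 1, the procedure called 57.8% of 2-fold and 89.1% of 4-fold changes. Of its calls, 5.23% were false. The measured arrays gave only 9 calls. Where fewer probe sets change, the adjustment asks for a smaller p, so these shares may be too high for the measured arrays. The simulated spread was assigned to probe sets at random, so it did not follow the signal. Alternatives were another pseudocount, filter, scaling and prior, the 4 arrays alone, the experiment number as a block, each array left out, and for the lists all probe sets of a gene. The number of arrays limits the precision. Python 3.11.15 and matplotlib 3.10.9 drew the figures.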

Additional observations from a re-analysis of the deposited data

Results flagged for a closer look

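Prp2 differed between the null lines. On 93650_i_at line 1 exceeded the second null line by 2.10 ± 0.14 on the log2 scale (limma, adjusted p = 0.0363), with 127.2 and 106.3 in line 1 against 26.7 and 24.5 in that line and 28.2 and 28.3 in wild type. It was 1 of 2 probe sets that passed in this contrast. The further Prp2 probe set, 93651_r_at, overlapped between line 1 and wild type. For the other 8 probe sets called in line 1, the difference between the null lines did not pass (adjusted p from 0.639 to 0.905), which does not show that the lines are alike. The cause was not tested.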

How the results depend on the processing

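The counts of 7 higher and 2 lower became 10 and 5 with pseudocount 16, 4 and 1 with no filter on dim probe sets, 11 and 7 with the filter at the 60th percentile, and 22 and 20 with a prior spread that follows the signal. They were 8 and 2 in the fit to the 4 arrays only, and 8 and 3 after quantile normalization. With the filter on the mean over 6 arrays, an alternative chosen after seeing the data, they were 8 and 2. With single arrays left out they ranged from 3 to 5 higher and from 0 to 2 lower. With the experiment number as replicate block, 8 rose and 1 fell, and Igf2 was lost (adjusted p = 0.0792). The differences between experiments 1 and 2 correlated at 0.048 between wild type and line 1, 0.099 between wild type and the second null line and 0.075 between the null lines, so the numbers were not treated as pairs. The labels do not say whether a number marks a shared batch. The cause of these shifts was not tested, beyond that filters change how many probe sets are tested. Of 1651 values of named genes under the alternatives, 1599 kept their direction and their side of the threshold, 22 lost the call, 26 gained one and 4 reversed: Mt3 to 0.15 without wild-type replicate 2 and to 0.05 without line 1 replicate 1, and, without line 1 replicate 2, Mnt to 0.03 and Rps29 to 0.01. With single arrays left out, these ranged from -0.15 to 0.15 (Mt3), from -0.35 to 0.03 (Mnt) and from -0.70 to 0.01 (Rps29). Of 403 list medians, 363 moved by less than the spread of the arrays and 40 by more. Background sets the limit for dim genes.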

Other observations

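Several probe sets listed with Sgip1 and Noct, and some also with Cog6 and Gm10845, read higher in line 1 without passing the adjusted p. The brightest, 98254_f_at, read 1197.3 and 1099.0 in wild type and 2079.5 and 2235.9 in line 1 (0.91, adjusted p = 0.113). The closest to the threshold were 93909_f_at, at 460.4 and 449.8 against 939.8 and 852.4 (0.97, adjusted p = 0.0895), and 97181_f_at, at 801.7 and 799.9 against 1481.5 and 1549.1 (0.92, adjusted p = 0.0895). These probe sets share sequence with several genes, so none of them can be assigned to 1 gene. They were chosen after their values were seen.

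The probe set 101883_s_at, listed with the X-linked genes Xlr3a, Xlr3b and Xlr3c, was at background in wild type (2.1 and 4.5) and read 16.3 and 19.7 in line 1. It was too dim to be tested.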
